A study of Mus musculus with 4 samples.

Results

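The 10 genes described here encode the major heat shock chaperones of the cytosol and mitochondria: Hsp90aa1 and Hsp90ab1 (Hsp90), Hspa8, Hspa1a and Hspa1b (Hsp70), Hsph1 (Hsp110), Hspb1 (small heat shock protein), and Hspd1, Hspe1 and Hspa9 (mitochondrial Hsp60, Hsp10 and Hsp70). They were picked as Hsf1-driven and mitochondrial chaperones and taken by symbol from the 23420 genes in the deposited tables. All 10 had at least 100 reads over the 12 replicates, as did 16077 genes in all. Cochleae were dissected on postnatal day 1 from CD1 mice that carried an Atoh1-GFP transgene, in which the Atoh1 enhancer drives a fluorescent reporter in hair cells, and were kept overnight in DMEM/F12 with 1% N2 and 100 U/ml penicillin under 5% CO2 and 5% O2. The explants then received 0.5 mM gentamicin, an aminoglycoside antibiotic that is toxic to hair cells, for 3 h, or no gentamicin, and were dissociated with enzymes and sorted. GFP-positive hair cells (HC) without cells of weak GFP, and GFP-negative non-hair cells (NHC), a mixture of supporting cells, other cochlear epithelium and surrounding tissue, were sequenced. This gave 3 replicates in each of 4 groups. All groups, controls included, had passed through culture, enzyme treatment and sorting, and uncultured cochleae were not analysed here.

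Heat shock proteins bind unfolded polypeptides and help them fold, or hold them until they can be refolded or degraded. Hsf1, the main transcription factor of the heat shock response, is held inactive by chaperones and is released when unfolded protein accumulates. It then binds heat shock elements, which are inverted repeats of the unit nGAAn, and raises the inducible genes, of which Hspa1a and Hspa1b are the classical readout. Hspa8 and Hsp90ab1 are their constitutive relatives, expressed in nearly all cells. Hspd1 and Hspe1 form the folding chamber of the mitochondrial matrix, and Hspa9 draws imported proteins into the matrix. In inner ear explants the heat shock response is known as a protective pathway against aminoglycosides.

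The letters of the heat shock element are shown first, for the members whose promoter windows were at hand. Hspa8, Hsp90aa1, Hsp90ab1 and Hspa9 had no window and were not searched. RefSeq promoter windows of the GRCm38.p6 assembly, from 250 bases before to 50 bases after a transcript start, were at hand for 6 of the 10 members, in 8 windows. They were searched on both strands for 2 contiguous units (GAANNTTC or TTCNNGAA) and for 3 contiguous units (GAANNTTCNNGAA or TTCNNGAANNTTC), and each match of 3 units also holds matches of 2. Of all 32851 promoter windows, 15.1% held 2 units and 0.603% held 3 units. Of the 8 windows of members, 7 held 2 units, at least 1 for each gene, and 4 held 3 units (1 of Hspd1, 1 of Hspe1 and both of Hsph1). The members had been picked as Hsf1-driven and mitochondrial chaperones, so these counts are a description and no test. Nor are the windows independent. Both Hsph1 windows hold the same element of 3 units, and those of Hspd1 and Hspe1 share theirs. The window of the Hspd1 start at 55088243, which lies inside Hspe1, held no match. From that start the element described next lies downstream, beyond the window. A match describes letters in the window, and binding of Hsf1 was not measured.

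Hspd1 and Hspe1 lie head to head on chromosome 1 and share 1 region with 4 contiguous units. The start of Hspe1 is at 55088148, and those of Hspd1 are at 55087932 and 55088243. The first Hspd1 start lies 216 bases before the Hspe1 start, and the second lies inside Hspe1. The region lies 89 to 72 bases before the start of Hspe1 and 144 to 127 bases before the Hspd1 start at 55087932. The shared region is shown because 1 element stands between both subunits of the mitochondrial chamber (chr1:55087998-55088147, read on the Hspe1 strand, element in capitals).
Hspe1 and Hspd1: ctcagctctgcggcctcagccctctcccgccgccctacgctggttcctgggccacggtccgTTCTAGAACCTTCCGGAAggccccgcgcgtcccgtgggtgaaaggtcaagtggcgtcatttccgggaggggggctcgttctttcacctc

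The windows of Hspa1a and Hspa1b had the same base at 296 of 300 positions, and each held a match of 2 units from 104 to 97 bases before its start. The stretches from 150 to 21 bases before the start are shown because they are the same letter for letter, on the minus strand at chr17:34972177-34972306 and chr17:34959259-34959388.
Hspa1a: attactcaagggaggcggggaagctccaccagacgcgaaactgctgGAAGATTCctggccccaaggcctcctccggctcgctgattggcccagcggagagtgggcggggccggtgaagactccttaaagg
Hspa1b: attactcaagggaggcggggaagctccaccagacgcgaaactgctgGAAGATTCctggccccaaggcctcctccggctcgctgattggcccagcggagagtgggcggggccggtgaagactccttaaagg

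Hspb1 held matches of 2 units from 117 to 110 and from 97 to 90 bases before its start (plus strand, chr5:135887769-135887918). Hsph1 held a match of 2 units from 33 to 26 bases before the first of its starts in the table and a match of 3 units from 36 to 48 bases after it. The latter is shown with its flanks (minus strand, chr5:149636287-149636308). The Hspb1 and Hsph1 sequences are shown as the genes furthest apart in expression between the populations, with the matches in capitals.
Hspb1: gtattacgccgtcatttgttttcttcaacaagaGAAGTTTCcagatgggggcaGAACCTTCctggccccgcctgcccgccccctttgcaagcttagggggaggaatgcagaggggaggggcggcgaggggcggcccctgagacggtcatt
Hsph1: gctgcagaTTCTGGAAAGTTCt

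**Figure D1:**
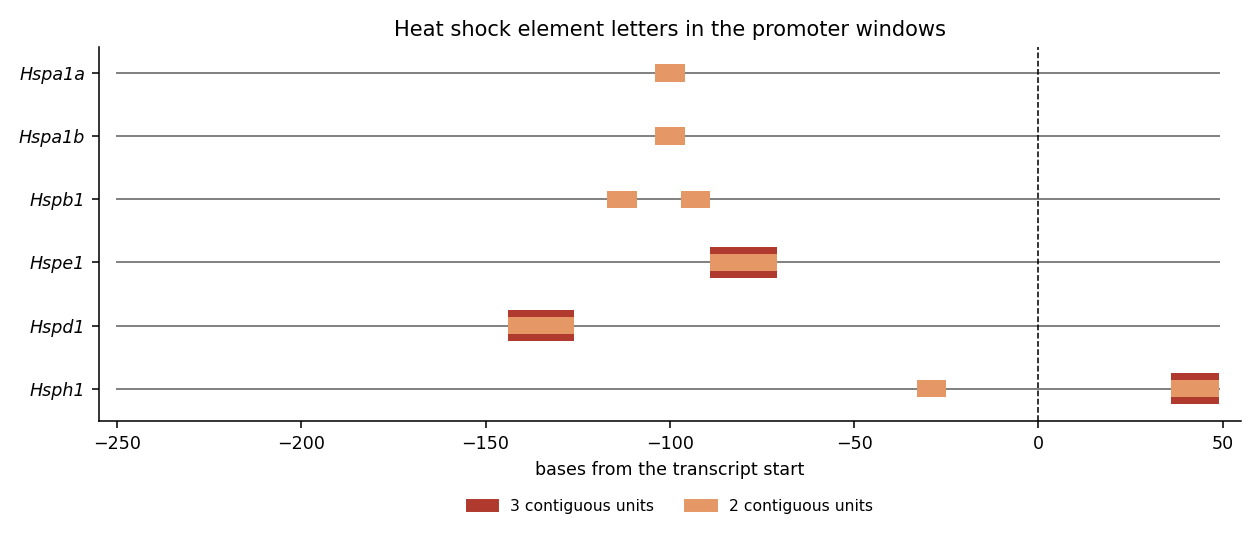
Matches of 2 (light bars) and 3 (dark bars) contiguous heat shock element units in the promoter windows of 6 members, in bases from the transcript start (dashed line), with 1 start shown for each gene. Hspe1 and Hspd1 share 1 element of 4 units, Hspa1a and Hspa1b hold the same match at the same distance, and the match of 3 units in Hsph1 lies after the start.

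The values below are normalized read numbers, the deposited scores, in which reads had been scaled for each replicate and 1 had been added. They are not divided by transcript length. Sums of markers and of all genes, shares of reads, levels per kilobase and ratios were computed with the offset of 1 taken off. Between 22399192 and 28150776 reads were recovered on genes in each replicate, with a median of 25115277. The sum of all normalized read numbers, with the offset taken off each, was 1028837 to 1032392 in control HC and 954555 to 976561 in gentamicin-treated HC. All 8 hair cell markers (Atoh1, Pou4f3, Myo7a, Myo6, Gfi1, Otof, Lhx3 and Pvalb) were higher in control HC than in control NHC, and their summed level was 11096 to 11523 in control HC and 229 to 255 in control NHC. The study calls the replicates biological, without saying what was separate between them, and the p-values measure the spread between these samples. In sorted populations, fewer cells of a type and less RNA per cell cannot be told apart.

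Reads of some members cannot be assigned to a single gene. Of the 50-base windows in the Hspa1b transcript, 62.3% also occur in Hspa1a, and 58.8% of those in Hspa1a occur in Hspa1b. The share of windows found in some other annotated gene was 74.8% for Hspa8, 58.5% for Hsp90aa1, 51.6% for Hspb1, 44.8% for both Hspd1 and Hspe1, 4.49% for Hsp90ab1 and 4.10% for Hspa9. Most of these other genes are processed pseudogenes, such as Gm15459 for Hspa8 and Hsp25-ps1 for Hspb1. No window of Hsph1 was shared. The 5′ ends of Hspd1 and Hspe1 also overlap in the annotation, and counting by strand is not stated.

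Hsp90ab1 and Hspa8 led the chaperones in both populations. Per kilobase of transcript, the value in control HC was 1157 ± 37.6 (SD, n = 3) for Hsp90ab1, 966 ± 39.0 (SD, n = 3) for Hspa8 and 406 ± 35.8 (SD, n = 3) for Hsp90aa1. The mitochondrial genes followed on the same scale, with 85.0 ± 3.63 (SD, n = 3) for Hspe1, 80.6 ± 3.96 (SD, n = 3) for Hspd1 and 66.4 ± 4.50 (SD, n = 3) for Hspa9. Hsph1 was next at 65.4 ± 3.05 per kilobase (SD, n = 3). At the bottom of the order were Hspa1b at 4.97 ± 3.32, Hspa1a at 4.07 ± 2.49 and Hspb1 at 2.56 ± 0.932 per kilobase (SD, n = 3 for each). Neighbours whose replicates overlapped in this order were Hspe1 and Hspd1, Hspa9 and Hsph1, and the last 3 genes.

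In control NHC the first 4 places were the same, and the order then changed. Hsp90ab1 had 886 ± 66.7 per kilobase, Hspa8 616 ± 54.0, Hsp90aa1 117 ± 15.0 and Hspe1 100.1 ± 11.1 (SD, n = 3 for each). Hspb1, last in control HC, had 36.0 ± 10.5 per kilobase and stood above Hspa1b (21.3 ± 9.96) and Hspa1a (16.97 ± 8.21), while Hsph1 was last at 14.4 ± 1.23 (SD, n = 3 for each). Replicates of Hsp90aa1 and Hspe1 overlapped, as did those of Hspb1, Hspa1b and Hspa1a and those of Hspa1a and Hsph1.

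**Figure D2:**
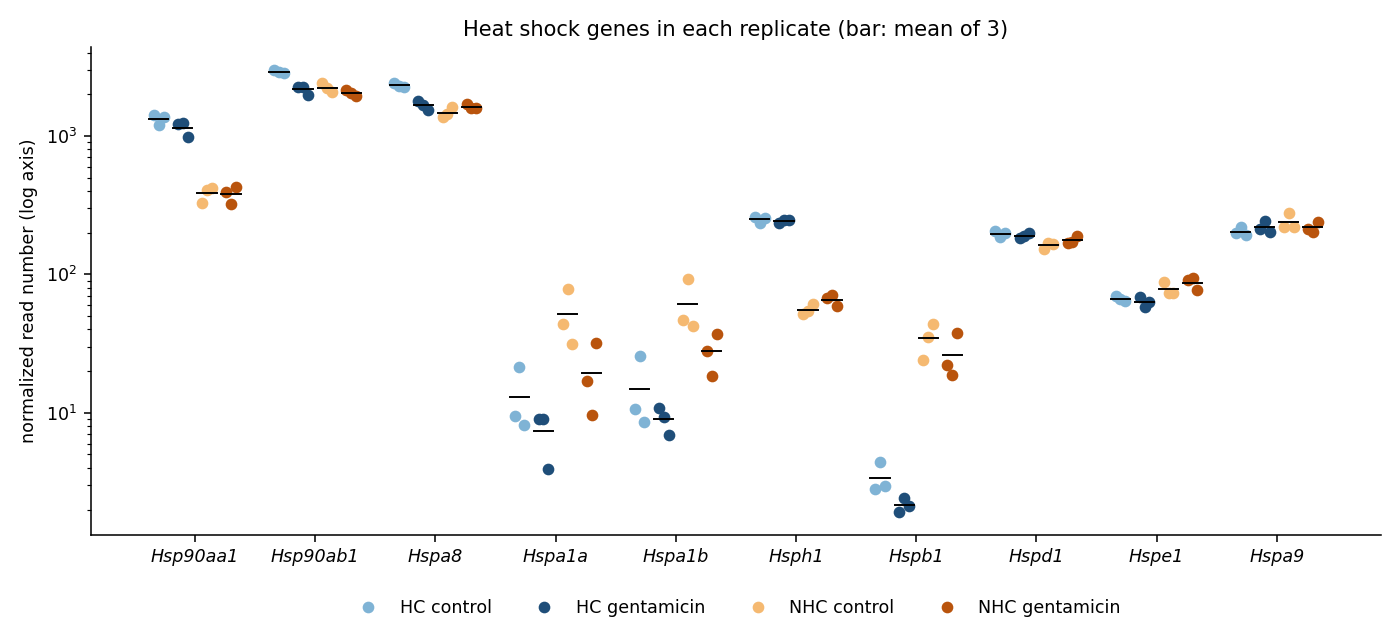
Normalized read numbers of the 10 members (log axis) in each replicate of control and gentamicin-treated hair cells (HC) and non-hair cells (NHC), with a bar at the mean of 3. Hspa1a, Hspa1b and Hspb1 sit lowest in HC and spread most in control HC. The gentamicin-treated HC replicates of Hspa8 and Hsp90ab1 lie below all 3 controls.

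The first comparison asked which chaperones differ between hair cells and non-hair cells without drug. Control HC had more Hsph1, Hsp90aa1, Hspa8, Hsp90ab1 and Hspd1 than control NHC, and less Hspb1, Hspa1b and Hspa1a. Hspe1 and Hspa9 did not pass the test. Thus 5 of the 10 members were higher and 3 lower at an adjusted p under 0.05 with a fold change above 1.2 (limma, 4 groups in 1 fit, Benjamini-Hochberg over 16077 genes). Of all genes tested, 30.2% were higher and 40.9% lower by the same rule, and the median log2 difference was -0.12 over all genes and 0.02 over the members.

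Hsph1, an Hsp110 that exchanges the nucleotide of Hsp70, lies on chromosome 5 (149614287–149636376, minus strand, as in GENCODE M21 on GRCm38, the build used below). Its normalized read number was 258, 236 and 254 in control HC and 51.8, 54.2 and 60.9 in control NHC. All 3 HC replicates were above all 3 NHC replicates by a wide margin, 4.49-fold, and the difference on the log2 scale was 2.17 (standard error 0.08, limma adjusted p = 8.61e-10). Hsp90aa1, the inducible cytosolic Hsp90 (chromosome 12, 110690605–110702728, minus strand), had 1421, 1199 and 1375 in control HC and 330.0, 405 and 422 in control NHC. The populations did not overlap, and their difference on the log2 scale was 1.79 (standard error 0.14, limma adjusted p = 4.41e-07).

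Its constitutive partner Hsp90ab1 (chromosome 17, 45567775–45573271, minus strand) had 3019, 2899 and 2832 in control HC and 2412, 2209 and 2079 in control NHC. The log2 difference of 0.39 was smaller than that of Hsp90aa1 and passed narrowly (standard error 0.14, limma adjusted p = 0.0251). It no longer passed in 4 of the 6 fits that left out 1 control replicate, with a lowest value of 0.34. Hspa8, the constitutive cytosolic Hsp70 (chromosome 9, 40800984–40810087, plus strand), had 2419, 2281 and 2242 in control HC and 1367, 1442 and 1619 in control NHC. Every HC replicate was higher, with 0.65 on the log2 scale (standard error 0.12, limma adjusted p = 0.000523).

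The stress-inducible Hsp70 genes went the other way. Hspa1b (chromosome 17, 34956436–34959238, minus strand) had 10.6, 25.6 and 8.54 in control HC and 46.5, 92.8 and 42.6 in control NHC. Hspa1a (chromosome 17, 34969190–34972156, minus strand) had 9.47, 21.6 and 8.22 in control HC and 44.2, 78.5 and 31.4 in control NHC. For both genes replicate 2 was the highest of its group in both populations, and all HC replicates lay below all NHC replicates. The log2 difference was -2.10 for Hspa1b (standard error 0.42, limma adjusted p = 0.000751) and -2.01 for Hspa1a (standard error 0.52, limma adjusted p = 0.00442). With both genes summed it was -2.11.

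Hspb1, a small heat shock protein that holds unfolded protein and acts on actin (chromosome 5, 135887919–135889563, plus strand), differed most. It had 2.82, 4.38 and 2.94 in control HC, from 42 to 79 recovered reads, and 24.1, 35.5 and 43.7 in control NHC. The log2 difference was -3.34 (standard error 0.29, limma adjusted p = 7.33e-07), and since 1 is part of each value it understates the difference of so low a gene. An estimate of RNA from other cells in the HC samples, the median level of 18 mesenchyme, endothelial, Schwann cell and macrophage markers relative to control NHC, was 7.86%, 12.4% and 7.02% in the control HC replicates. Such a share of the NHC level amounts to 2.63, 4.14 and 2.35 for Hspb1, which is all of the Hspb1 found above the offset of 1 in each of these replicates. For Hspa1a it amounts to 3.96, 6.23 and 3.53, which leaves 5.89, 17.4 and 4.96 on the normalized scale, offset included. The single markers gave unequal shares. Mean levels in control HC and control NHC were 124 and 3056 for Col3a1, but 60.1 and 115 for Erbb3. A share well below the median would leave some Hspb1 in HC.

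The mitochondrial genes differed little between the populations. Hspd1 (chromosome 1, 55077835–55088243, minus strand) had 204, 186 and 199 in control HC and 152, 169 and 167 in control NHC, without overlap, a log2 difference of 0.27 (standard error 0.07, limma adjusted p = 0.00403). Its 1.21-fold difference stands close to the threshold of 1.2 and fell short of it when all replicates were given equal totals (log2 difference 0.25). It passed in only 4 of the 6 fits that left out 1 control replicate, with a lowest value of 0.23. Its partner Hspe1 (chromosome 1, 55088132–55091307, plus strand) had 69.6, 66.9 and 64.0 in control HC and 88.4, 73.1 and 73.9 in control NHC. All 3 HC values lay below the NHC values, but the log2 difference of -0.23 did not pass (standard error 0.10, limma adjusted p = 0.0575). Hspa9 (chromosome 18, 34937414–34954357, minus strand) had 198, 219 and 194 against 222, 278 and 220.2, and the difference of -0.23 on the log2 scale did not pass either (limma adjusted p = 0.0723).

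**Figure D3:**
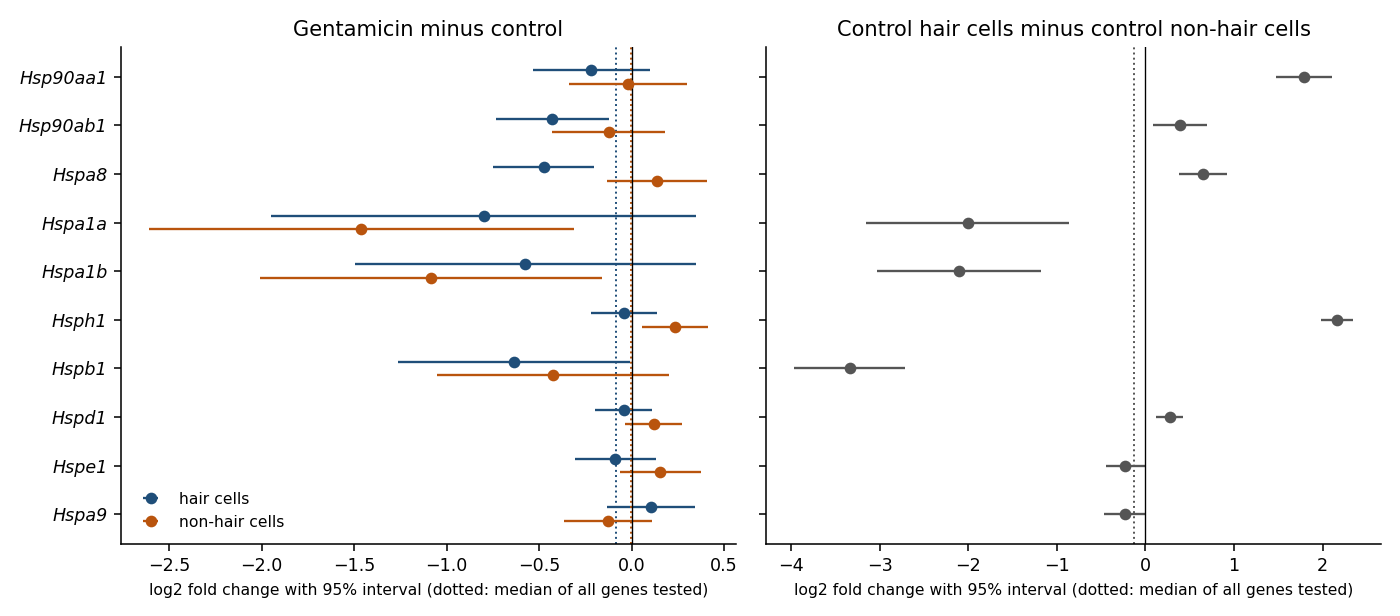
Log2 fold changes of the 10 members with 95% intervals from limma, for gentamicin minus control in hair cells and non-hair cells (left) and for control hair cells minus control non-hair cells (right). Dotted lines mark the median of all genes tested; the Hspa8 interval in hair cells (-0.75 to -0.20) excludes 0, and the intervals of Hspa1a and Hspa1b are the widest on the left.

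The second comparison asked how hair cells change the same genes after 3 h of gentamicin. None of the 10 members rose. Hspa8 fell by 0.48 on the log2 scale and was the only member to meet the criteria, which were a p under 0.01 before adjustment together with a fold change of more than 1.2. Of all genes tested in HC, 12.7% were higher and 14.8% were lower by these criteria, so 0 of 10 higher and 1 of 10 lower stand beside those shares. Of the genes that met them, 46.1% were higher, and 63.6% when all replicates were given equal totals. By adjusted p under 0.05 alone, 2 of 10 members (Hspa8 and Hsp90ab1) were lower, beside 18.4% of all genes. The median log2 fold change of the members was -0.32, against -0.09 over all genes, and 9 of the 10 were below 0.

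Hspa8 had 2419, 2281 and 2242 in control HC and 1774, 1676 and 1545 after gentamicin. All treated replicates were below all controls, with a log2 fold change of -0.48 (standard error 0.12, limma adjusted p = 0.0134). The call was lost with equal totals (-0.38, limma adjusted p = 0.0402), without control HC replicate 1 (-0.44) and without gentamicin HC replicate 3 (-0.42). Hsp90ab1 had 3019, 2899 and 2832 in control HC and 2272, 2250.4 and 1984 after gentamicin. The groups did not overlap, but its unadjusted p lay just above 0.01, with a log2 fold change of -0.43 (standard error 0.14, limma adjusted p = 0.0350).

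Hsp90aa1 moved less than either and its groups overlapped. It had 1421, 1199 and 1375 in control HC and 1228, 1243.5 and 975 after gentamicin, a log2 fold change of -0.22 (limma adjusted p = 0.271). These 3 genes were among the most abundant of all, at places 8 (Hsp90ab1), 12 (Hspa8) and 34 (Hsp90aa1) in control HC. The 65 genes whose control HC mean reached 1000 had a median log2 fold change of -0.31, and 13 of them (20%) were lower and 0 higher. They include these 3 members. They were picked by the baseline of the fold change, a choice that can by itself lower fold changes. The part of abundance in the fall of Hspa8 was not tested.

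The inducible Hsp70 genes were at low levels in HC before and after the drug. Hspa1a had 9.47, 21.6 and 8.22 in control HC and 9.06, 9.03 and 3.89 after gentamicin. Hspa1b had 10.6, 25.6 and 8.54 in control HC and 10.9, 9.27 and 6.97 after gentamicin. For both genes the treated range overlapped that of controls 1 and 3, and control replicate 2 stood above all others. The log2 fold change was -0.80 for Hspa1a (95% interval -1.95 to 0.35, limma adjusted p = 0.264) and -0.57 for Hspa1b (95% interval -1.50 to 0.35, limma adjusted p = 0.320). Without control HC replicate 2 these became -0.37 and -0.10, and that replicate also had the highest estimate of other-cell RNA (12.4%). With that RNA taken off, replicate 2 was still the highest control (17.4 for Hspa1a and 20.7 for Hspa1b), and the log2 fold changes were -1.15 and -0.87 (limma adjusted p = 0.278 and 0.333). The control NHC level was used for treated replicates too, although treated NHC had less Hspa1a (19.5 against 51.3) and Hspa1b (27.9 against 60.7). Too much may thus have been taken off treated HC, which would make these falls too steep. Hspa1a in gentamicin HC replicate 3 was left at the floor of 1. With both genes summed and no RNA taken off, the log2 fold change was -0.70.

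Hspb1 had 2.82, 4.38 and 2.94 in control HC and 1.91, 2.42 and 2.10 after gentamicin, from 22 to 34 reads. The groups did not overlap, and the log2 fold change was -0.63 (limma adjusted p = 0.110), or -0.96 with an offset of 0.1. This estimate for other cells came to 4.19%, 5.87% and 8.66% in the gentamicin-treated HC replicates, against 7.02% to 12.4% in controls. Taking it off left no Hspb1 above the offset in any of the 6 HC replicates, so no fold change was had there.

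For Hsph1 and the mitochondrial chaperones the groups overlapped and the intervals were narrow. Hsph1 had 258, 236 and 254 in control HC and 234, 245 and 248 after gentamicin, a log2 fold change of -0.04 (95% interval -0.22 to 0.14, limma adjusted p = 0.733). Hspd1 had 204, 186 and 199 in control HC and 183, 189 and 199 after gentamicin, a log2 fold change of -0.04 (95% interval -0.20 to 0.11). Hspe1 had 69.6, 66.9 and 64.0 in control HC and 68.1, 58.0 and 62.8 after gentamicin, a log2 fold change of -0.09 (95% interval -0.31 to 0.13). Hspa9, the only member above 0, had 198, 219 and 194 in control HC and 211, 243 and 203 after gentamicin, a log2 fold change of 0.10 (95% interval -0.13 to 0.34). With equal totals Hsph1, Hspd1 and Hspe1 turned to the positive side, at 0.056, 0.055 and 0.0080.

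Counted by replicates, 3 of the 10 members (Hspa8, Hsp90ab1 and Hspb1) had all treated HC replicates below all controls, and none had all of them above. Over all genes tested these shares were 33.1% below and 21.7% above. Together the 10 members took 0.736%, 0.693% and 0.694% of the recovered reads in control HC and 0.627%, 0.606% and 0.543% after gentamicin. In NHC the share was 0.463%, 0.477% and 0.472% in controls and 0.480%, 0.455% and 0.468% after gentamicin. Hspa8 and Hsp90ab1 made up most of the HC sum.

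The third comparison was the same treatment in NHC, where 3.18% of all genes were higher and 2.26% lower by the same criteria, and 55 genes had an adjusted p under 0.05. None of the 10 members met the criteria in either direction, and 3 of them (Hspa1a, Hspa1b and Hsph1) had an unadjusted p under 0.05, beside 17.1% of all genes. Hspa1b had 46.5, 92.8 and 42.6 in control NHC and 28.2, 18.4 and 37.1 after gentamicin, with all treated values below all controls. The change was -1.09 on the log2 scale (standard error 0.42, limma adjusted p = 0.226). Hspa1a had 44.2, 78.5 and 31.4 in control NHC and 17.002, 9.63 and 31.9 after gentamicin. Its replicates overlapped and the change was -1.46 on the log2 scale (standard error 0.52, limma adjusted p = 0.198). Without gentamicin NHC replicate 3, the highest treated value of both genes, Hspa1a met the criteria at -1.90.

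Hsph1 had 51.8, 54.2 and 60.9 in control NHC and 67.0, 70.4 and 58.9 after gentamicin, a log2 fold change of 0.23 (standard error 0.08, limma adjusted p = 0.188). It met the criteria without control NHC replicate 3 (0.30) and without gentamicin NHC replicate 3 (0.31). Hspa8 had 1367, 1442 and 1619 in control NHC and 1688, 1584 and 1587 after gentamicin, a log2 fold change of 0.14 with overlapping groups. Hspb1 had 24.1, 35.5 and 43.7 against 22.1, 18.7 and 37.6, a log2 fold change of -0.42. The other members lay between -0.13 (Hspa9) and 0.15 (Hspe1), with Hsp90ab1 at -0.12, Hsp90aa1 at -0.02 and Hspd1 at 0.12. By replicates, 1 member, Hspa1b, had all treated values below all controls and none had all above, beside 7.68% and 10.1% of all genes.

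The responses of both populations were then compared directly, as the log2 fold change in HC minus that in NHC. Hspa8 was the only member to pass at an adjusted p under 0.05, beside 13.4% of all genes, with a difference of -0.61 (standard error 0.18, limma adjusted p = 0.0411). It was kept in 1 of the 12 fits that left out 1 replicate, with differences from -0.66 to -0.56 where it was lost, and it was lost with equal totals (-0.54) and with no minimum of reads. Hsph1 differed by -0.27 (limma adjusted p = 0.135), Hsp90ab1 by -0.31 (limma adjusted p = 0.323) and Hspe1 by -0.24 (limma adjusted p = 0.272). For Hspa1a and Hspa1b the differences of 0.66 and 0.51 had 95% intervals from -0.96 to 2.28 and from -0.79 to 1.82, which include 0 and reach several fold in the positive direction.

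Ratios of members within a replicate do not depend on how replicates were scaled. In HC the ratio of Hsp90aa1 to Hsp90ab1 was 0.456 ± 0.0381 in controls and 0.528 ± 0.0323 after gentamicin (SD, n = 3 for each), with controls up to 0.485 and treated replicates from 0.491. The ratio of Hsph1 to Hspa8 was 0.107 ± 0.00502 in controls and 0.146 ± 0.0143 after gentamicin (SD, n = 3 for each), again without overlap. The sum of Hspd1, Hspe1 and Hspa9 relative to Hspa8 was 0.201 ± 0.00605 in controls and 0.283 ± 0.0210 after gentamicin (SD, n = 3 for each), with all treated values higher. With 3 replicates against 3 no exact permutation test can go below p = 0.1, so these ratios are given without a test. They show unequal change, and not which gene of a ratio moved. The ratios to Hspa8, the member called lower in HC, are not separate from its fall. Of single genes tested in HC, 33.1% had all treated replicates below all controls and 21.7% had all above. The ratio of Hspa9 to Hspd1 overlapped in HC (0.967 to 1.18 in controls, 1.02 to 1.28 after gentamicin), as did that of Hspa1a to Hspa1b.

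In NHC the same ratios overlapped between control and gentamicin. Hsp90aa1 to Hsp90ab1 was 0.174 ± 0.0340 and 0.186 ± 0.0305, Hsph1 to Hspa8 was 0.0371 ± 0.000135 and 0.0398 ± 0.00372, and the mitochondrial sum to Hspa8 was 0.326 ± 0.0388 and 0.296 ± 0.0187 (SD, n = 3 for each). The sum of Hspa1a and Hspa1b was 0.0756 ± 0.0376 of Hspa8 in control NHC and 0.0281 ± 0.0131 after gentamicin (SD, n = 3 for each), from 0.0445 in the lowest control to 0.0422 in the highest treated replicate. In HC this ratio was 0.0113 ± 0.00739 and 0.00853 ± 0.00243 (SD, n = 3 for each) and overlapped. Hspe1 to Hspd1, which share a promoter region, was 0.338 ± 0.0189 in control HC, 0.328 ± 0.0355 after gentamicin, and 0.483 ± 0.0832 in control NHC (SD, n = 3 for each), and control HC values lay below control NHC values.

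**Figure D4:**
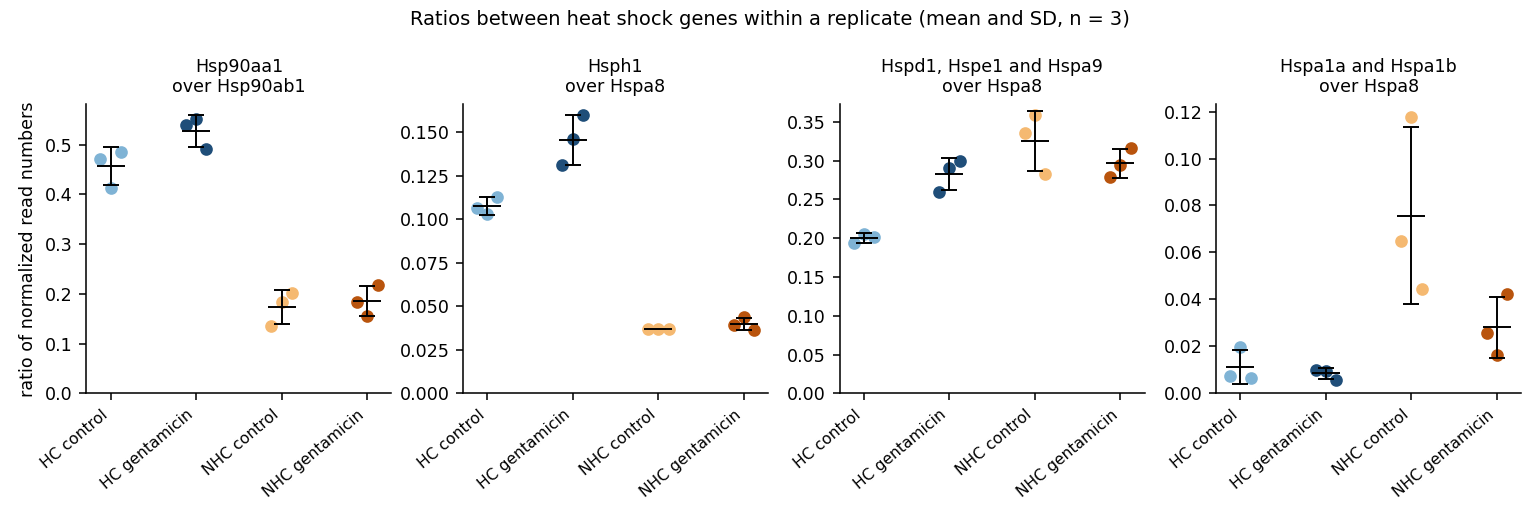
Ratios of normalized read numbers within each replicate of HC and NHC, with mean and SD of 3 (axes start at 0). In HC the first 3 ratios are higher in every gentamicin-treated replicate than in every control, and in NHC the ratio of Hspa1a and Hspa1b to Hspa8 is lower in every treated replicate. Ratios to Hspa8 in HC include the fall of Hspa8 itself.

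The members differed in how far replicates of a group stood apart. In control HC the SD of the log2 value was 0.84 for Hspa1b and 0.75 for Hspa1a, larger than in 99.9% and 99.7% of genes tested, against a median SD of 0.09 over all genes. Hspb1 followed at 0.35. Hspa8, Hsp90ab1, Hsph1, Hspd1 and Hspe1 lay between 0.05 and 0.07. Also in control NHC, Hspa1a (0.67) and Hspa1b (0.61) were the most variable members.

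Genes that regulate or assist the chaperones were grouped by role in 7 lists with 68 genes, of which 66 were tested. In HC, 7 of the 66 were higher and 4 lower by the criteria, beside the 12.7% and 14.8% of all genes given above, and their median log2 fold change was -0.04 against -0.09 over all genes. With equal totals 12 were higher and 3 lower. In NHC 2 were higher and 2 lower, beside 3.18% and 2.26% of all genes, and the median was 0.05 against -0.01 over all genes.

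Among the heat shock factors, Hsf1 itself had a mean of 55.8 ± 1.11 in control HC and 62.6 ± 3.62 after gentamicin (SD, n = 3 for each). Every treated replicate was above every control, but the log2 fold change of 0.16 did not meet the criteria (limma adjusted p = 0.106). Hsf2, a partner of Hsf1 with its own developmental targets, rose from 37.5 ± 1.44 to 54.7 ± 4.69 (SD, n = 3 for each), a log2 fold change of 0.54 (standard error 0.09, limma adjusted p = 0.00116). In NHC Hsf2 was 31.4 ± 1.94 and 29.7 ± 2.36 (SD, n = 3 for each), and its responses differed between the populations by 0.62 (limma adjusted p = 0.0106). Hsf5 rose in HC at a very low level, from 1.48 to 2.30 with the offset of 1 included (log2 fold change 0.63, limma adjusted p = 0.00719). Hsf4 and Hsbp1 did not meet the criteria in HC. Hsf4 met them in NHC (-0.53, limma adjusted p = 0.142), also near the floor, from 2.80 to 1.94 with the offset included.

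Of 8 other Hsp70 and Hsp110 genes, only Hspa14, an atypical Hsp70 found at ribosomes, met the criteria in HC. It rose from 26.5 ± 1.15 to 35.8 ± 2.28 (SD, n = 3 for each), a log2 fold change of 0.44 (limma adjusted p = 0.00338), and in NHC from 35.0 ± 3.30 to 44.4 ± 2.23 (SD, n = 3 for each), 0.35 (limma adjusted p = 0.101). None of the 5 other small heat shock genes tested met the criteria in HC. Between control populations, 4 of the 8 other Hsp70 and Hsp110 genes were higher in HC and 4 lower, beside 30.2% and 40.9% of all genes. Hspa2 and Hspa4l were among the higher, with log2 differences of 2.78 and 2.67, and Hspa12b among the lower, with -2.76; these 3 were chosen after their values were seen.

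Among 19 cytosolic cochaperones, 1 was higher and 2 lower in HC. Bag1, a nucleotide exchange factor of Hsp70, had 67.9 to 72.6 in the 3 controls and fell to between 49.5 and 50.8 in the 3 treated replicates, a log2 fold change of -0.50 (limma adjusted p = 0.000205), and was 89.1 ± 5.22 and 87.0 ± 2.77 in NHC (SD, n = 3 for each). Fkbp5, an Hsp90 partner of steroid receptors, fell by 0.41 on the log2 scale, and Ptges3, the Hsp90 cochaperone p23, rose by 0.28. The responses of Bag1 differed between the populations by -0.46 (limma adjusted p = 0.00735), and 1 other cochaperone of the list, Stip1, differed by -0.39 (limma adjusted p = 0.0204). Stip1, which joins Hsp70 to Hsp90, had -0.23 in HC and 0.17 in NHC and met the criteria in neither.

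In the mitochondrial quality control list, 3 of 13 genes were higher in HC and none lower, beside 12.7% and 14.8% of all genes. Clpx, the unfoldase of the ClpXP protease, rose from 41.5 ± 2.53 to 59.1 ± 2.40 (SD, n = 3 for each), a log2 fold change of 0.51 (limma adjusted p = 0.000695). Its protease partner Clpp rose by 0.38 (limma adjusted p = 0.0153), and Yme1l1, a protease of the inner membrane, rose by 0.34 (limma adjusted p = 0.00754). Hspd1, Hspe1 and Hspa9 in the same replicates lay between -0.09 and 0.10, as above. In NHC Clpx had 0.07, and its responses differed between the populations by 0.44 (limma adjusted p = 0.0248). Timm44, which anchors Hspa9 at the import channel, fell in NHC (-0.37, limma adjusted p = 0.0623), and its responses differed by 0.53 (limma adjusted p = 0.00968).

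Of the 8 subunits of the CCT chaperonin, which folds actin and tubulin, Tcp1 fell in HC (-0.28, limma adjusted p = 0.0219) and the other 7 did not meet the criteria; with equal totals Tcp1 had -0.19 and was not called. In NHC Cct3 rose (0.31, limma adjusted p = 0.120). Between control populations 7 of the 8 were higher in HC, beside 30.2% of all genes. Among 16 other Hsf1 targets, some of them also in the lists above, 0 were higher in HC. The 1 that was lower, Serpinh1, is a collagen chaperone of the endoplasmic reticulum and fell from 120 ± 25.2 to 62.1 ± 17.2 (SD, n = 3 for each), with -0.97 on the log2 scale (limma adjusted p = 0.00470). Serpinh1 was 1137 ± 137 in control NHC (SD, n = 3), and after the estimated RNA of other cells was taken off it no longer met the criteria (-2.63, limma adjusted p = 0.0407).

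**Figure D5:**
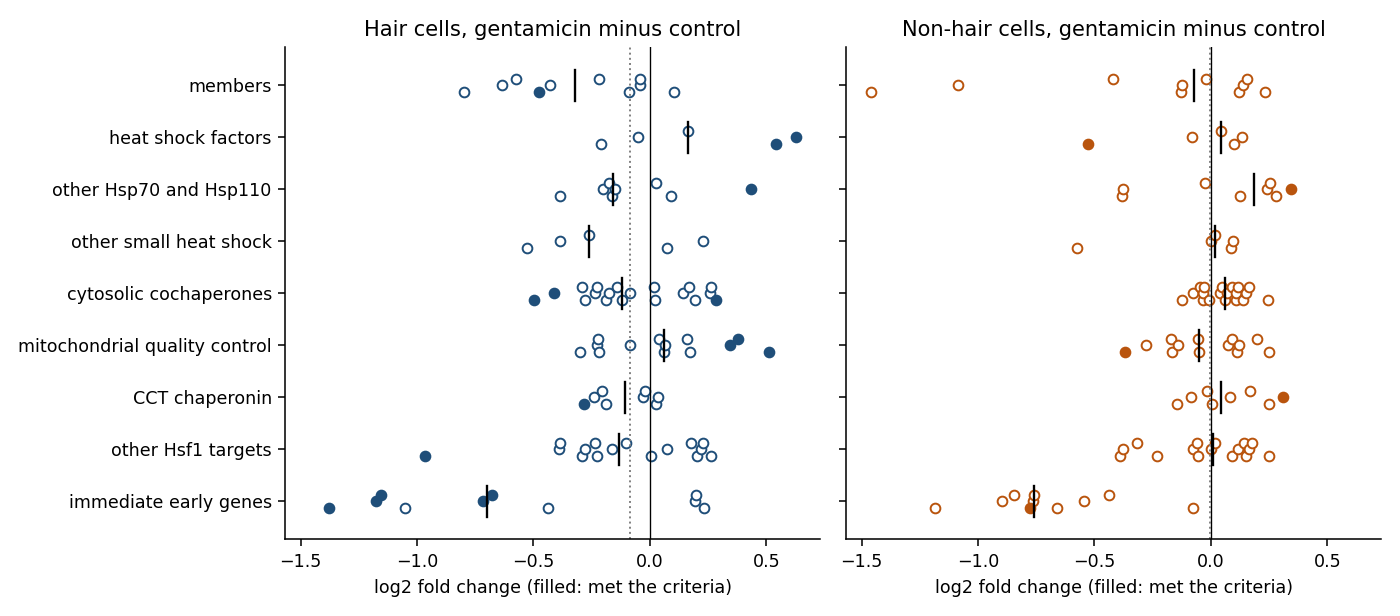
Log2 fold changes with gentamicin in HC (left) and NHC (right) for the 10 members and the tested genes of 8 lists, with filled points for genes that met the criteria, a bar at each list's median and a dotted line at the median of all genes. In HC, 1 member is filled, below 0, and the filled genes above 0 are heat shock factors, Hspa14, Ptges3 and mitochondrial proteases.

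Immediate early genes respond within minutes to dissociation and stress. In HC 5 of 10 were lower and 0 higher, beside 14.8% and 12.7% of all genes. The lower ones included Fosb (-1.38), Zfp36 (-1.18), Fos (-1.15) and Egr1 (-0.68). Fos had 447 ± 95.9 in control HC and 198 ± 18.2 after gentamicin (SD, n = 3 for each). In NHC all 10 were below 0 with a median of -0.76, and 1, Junb, met the criteria (-0.78, limma adjusted p = 0.113). In control NHC, where Hspa1a and Hspa1b were also higher, 9 of the 10 immediate early genes were above control HC, beside 40.9% of all genes. Fos was at 2190.3 ± 335 in control NHC (SD, n = 3). The part of dissociation in the levels of Hspa1a and Hspa1b was not tested.

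Most markers of other cells were below 0 with gentamicin in HC. Above 0 were 3 of 4 macrophage markers, 1 of 3 melanocyte markers (Dct) and the 2 measured erythroid markers. Of all genes, 14.8% were lower in HC by the criteria. All 8 supporting cell markers were below 0 with gentamicin in HC and 3 of them met the criteria (Hes5, -2.02; Lfng, -1.17; Gjb2, -0.77), and their summed level was 1645 to 2004 in control HC and 728 to 1393 after gentamicin. In control NHC it was 1006 to 1541, and 3 of the 8 (Lfng, Jag1 and Gjb6) were higher in control HC than in control NHC. Supporting cell markers are not among the 18 of the estimate. All 6 mesenchyme markers were below 0 and 4 met the criteria (Col3a1, Dcn, Postn and Col1a2), with sums of 253 to 536 in control HC, 174 to 220 after gentamicin and 5622 to 9218 in NHC. One marker each met the criteria among 4 endothelial (Cdh5), 4 Schwann cell (Sox10) and 3 melanocyte markers (Tyr), all lower, and none of the 4 macrophage markers or the 2 measured erythroid markers did. None of the 8 hair cell markers met the criteria in HC. No marker was without reads in a whole group. With the estimated RNA of other cells taken off, Hspa8 in HC was as low as before (-0.52, limma adjusted p = 0.00968), Hsp90ab1 met the criteria (-0.47, limma adjusted p = 0.0274), and Hsph1, Hspd1, Hspe1 and Hspa9 stayed between -0.09 and 0.12.

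The genes with the pattern most like that of 3 members were found as those with the smallest root mean square difference of centred log2 values over the 12 replicates. For Hspa8 they were Nkain1 (0.0808), Huwe1 (0.0827) and Hint3 (0.0945), with log2 fold changes of -0.48, -0.46 and -0.30 in HC and of 0.16, 0.11 and 0.10 in NHC. For Hspd1 they included Kctd10 (0.0540) and Sdha (0.0604), a subunit of mitochondrial complex II, with log2 fold changes of 0.01 and -0.06 in HC. For Hspa1b the nearest, members aside, were 6330403A02Rik (0.327), Rgs10 (0.328) and Chrna4 (0.330).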

How the data were processed

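Sorted hair cells and non-hair cells, with and without gentamicin, were measured by polyA RNA-seq in 3 replicates each. Reads of 50 bases were trimmed (quality of at least 25) and aligned by the authors to mm10 with TopHat 2 in PartekFlow. The deposited value is a score for each gene and replicate, here called the normalized read number. RPKM is named in the study's methods, yet no division by length was found in the deposited scores. After the offset of 1 was taken off, 76.3–77.9% of low values were whole multiples of 1 step (within 0.02 reads), which gave the recovered reads. Since not nearly all were whole, no count test was run.

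Tests used limma 3.58.1 under R 4.3.3 on log2 scores, two-sided, with the 4 groups in 1 model and a trended empirical Bayes variance, for 16077 genes with at least 100 recovered reads. This stands in for the authors' gene-specific models, with their criteria (p under 0.01, fold change above 1.2). The difference of responses was read at an adjusted p under 0.05 (Benjamini-Hochberg). Fold changes are on the scale of the score with its offset. The fit was tested on simulated data. Same-numbered control replicates of both populations deviated together (correlations of 0.216, 0.316 and 0.200, all others below 0). Between the gentamicin-treated populations the same-numbered correlations were 0.377, -0.0386 and -0.0179, and a different-numbered pair reached 0.198. Whether the column numbers pair samples is therefore not known. Ratios and levels were computed in Python 3.11.15 with pandas 2.3.3, positions came from GENCODE M21, and promoters from RefSeq.

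All members are named, with Hsf1, Hsf2 and up to 4 called genes of each list (smallest p in hair cells) and the 3 most alike genes of Hspa8, Hspd1 and Hspa1b, of which 1 is not reported here. Hsf4, Hsbp1, Junb, Cct3, Timm44 and Stip1 were chosen after their values were seen. Members and lists were chosen with earlier results of these data known. Alternatives were 2 other scalings, another offset, other minimums, groups fitted alone, a replicate block, replicates left out, other thresholds and RNA of other cells taken off. The sum of Hspa1a and Hspa1b was added after seeing the data.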

Additional observations from a re-analysis of the deposited data

Results flagged for a closer look

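Among 90 genes, the members, the named genes and those of the chaperone lists, 7 (7.78%) responded differently to gentamicin in hair cells and non-hair cells by the interaction term (limma adjusted p under 0.05, log2 response in hair cells minus that in non-hair cells), beside 13.4% of all genes. Most named genes had been chosen for a small p in hair cells. Hspa8 had -0.61 (adjusted p = 0.0411), with all 3 treated replicates below all controls in hair cells and overlapping groups in non-hair cells. Hsf2 had 0.62 (adjusted p = 0.0106) and Clpx 0.44 (adjusted p = 0.0248), both with all 3 treated hair cell replicates above all controls. Bag1 had -0.46 (adjusted p = 0.00735) and Dcn, a mesenchyme marker, -0.84 (adjusted p = 0.0448). Stip1 had -0.39 (adjusted p = 0.0204) and Timm44 0.53 (adjusted p = 0.00968). Groups of 3 replicates were too small to be searched for single samples that stand apart.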

How the results depend on the processing

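The count of members called in hair cells, 1 as reported, became 0 with equal totals or a fold change above 1.5, and 2 (Hspa8 and Hsp90ab1) with an offset of 0.1, a minimum of 1000 reads, the replicate block, RNA of other cells taken off, or an adjusted p under 0.05 without a fold threshold. With 1 replicate left out it was 0 to 1 in hair cells, 0 to 2 in non-hair cells (0 as reported), 0 to 1 for the difference of responses and 6 to 8 between the control populations (8 as reported). The member called for the difference, Hspa8, was lost (0 called) with equal totals and with no minimum of reads. Of all genes, 2074 were called in hair cells at a fold change above 1.5, against 4418. In non-hair cells 875 were called, but 383 with those 2 groups alone, 55 by adjusted p, 219 at a fold change above 1.5, and 411 to 1570 with 1 replicate left out. For the difference of responses, 2158 genes became 1163 to 2378 with 1 replicate left out. With equal totals, 63.6% of the genes called in hair cells were higher (2774 higher, 1591 lower), against 46.1% (2037 higher, 2381 lower), and 69.2% in non-hair cells, against 58.5%. The chaperone lists then held 12 higher genes in hair cells (7 as reported) and 6 in non-hair cells (2 as reported). The cause of these changes was not tested.

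Direction turned for Hsph1 (0.056), Hspd1 (0.055) and Hspe1 (0.0080) in hair cells with equal totals. It turned for Hsp90aa1 in non-hair cells with equal totals (0.0035) and in 3 of 6 fits with 1 replicate left out (range -0.128 to 0.0962), and for the difference of Hspb1 in 2 of 12 such fits (range -0.418 to 0.0846). Of the member values under alternatives, 573 kept direction and side of the threshold, 25 lost it, 8 gained it and 9 turned. Replicate numbers stand in the column names only. Between control and gentamicin, same-numbered replicates did not deviate together in every pair (correlations of 0.04 to 0.05 in hair cells and -0.23 to 0.68 in non-hair cells). Whether they are paired is not known there either. The replicate block changed no other call of a member. Few reads limit Hspb1 in hair cells (22 to 79).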
